A study of Mus musculus
Rattus norvegicus and Mus musculus and Rattus norvegicus with 95 samples.

Results

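Mouse-rat allodiploid embryonic stem cells (AdESCs) carry mouse and rat chromosomes in the same cell, so each of their genes can be read from a mouse copy and from a rat copy. The comparison described here set bulk RNA of 4 AdESC lines (MR1-1, MR2-1, RM1-1 and RM2-1) against bulk RNA of 2 rat embryonic stem cell (ESC) lines (DA25 and DA53), with 2 mouse ESC lines (F145 and F146) as a further group in the same model. All 8 libraries were labelled as ESCs in G0/G1, with 1 library per line. No treatment, time point or added allele separates them in the labels, and strains, the meaning of RM and MR, passage and culture conditions are not given in the sources used here. Values were FPKM (fragments per kilobase of transcript, scaled to the mapped fragments of the library) for 13926 mouse-rat homologues named by mouse symbols. The genes followed were those above 0 FPKM in both rat libraries whose average across the 8 libraries reached 1 FPKM, which kept 8492 of the 13926.

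The choice of genes used levels and not the difference between the groups, but it was not neutral to direction. A gene near 0 in rat reached the mean only through its AdESC or mouse levels, so such genes could be called higher and not lower. Of 10483 genes above 0 in both rat lines, 1991 fell short of the mean. A further 302 genes passed the mean but were listed at 0 in 1 rat line (109 genes) or in both (193 genes). Just inside the limit stood Arhgap4 and Peli3, each at a mean of 1.00 FPKM, and just outside stood Morn1 and Flt3, also at 1.00 after rounding. The lower edge on the rat side is loose, since the lowest rat values kept were 4e-06 FPKM for Myl6, 0.000812 for Szrd1 and 0.00695 for Dpp4. No fold is drawn from such values.

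Rodent ESCs are grown from the inner cell mass of the blastocyst and hold a pluripotent state resting on the factors Pou5f1, Nanog and Sox2. LIF, bound by the receptor pair Lifr and Il6st, activates Stat3 through Jak kinases and is a classical support of mouse and rat ESC culture. Nodal, a ligand of the TGF-beta family, signals through activin receptors and Smad proteins, and its target genes Lefty1 and Lefty2 encode secreted proteins that block it. Lefty1, Lifr and Car6, a secreted carbonic anhydrase, are the genes named to mark the comparison. Their rat means were 313, 102 and 195 FPKM, each above the AdESC mean. As markers of this comparison they give no separate support to it. Their mouse positions (GRCm38.p6) are chr1:180935022-180938401 for Lefty1, chr15:7090610-7197489 for Lifr and chr4:150187015-150201135 for Car6.

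AdESCs resembled rat ESCs at most genes and differed at a minority, in nearly equal numbers of rises and falls at this setting. The limma fit on log2(FPKM + 1) called 690 of the 8492 genes at an adjusted p under 0.05, or 8.13%, with 346 higher in AdESCs (4.07%) and 344 lower (4.05%). The counts for gene lists below are to be read beside these shares, and no test was run on the lists. Over all 8794 genes tested the share was 9.70% (5.79% higher and 3.91% lower), with 163 further rises and 0 further falls among the genes at 0 in a rat line. The median log2 difference, AdESC minus rat ESC, was -0.13 with quartiles of -0.49 and 0.31, and 7116 genes (83.8%) lay within 1. The AdESC and rat libraries did not overlap in 3387 of the genes, or 39.9%, and did not overlap in any of the 690 called. Of 1376 genes beyond a log2 difference of 1, 718 were not called.

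The split between rises and falls depends on the lowest rat level allowed and on the scale of the libraries. With at least 1 FPKM required in both rat lines, 159 genes were higher and 344 lower. When each library was divided by the upper quartile of its values above 0, the median difference moved by 0.31 to 0.18, and the calls became 588 higher and 164 lower, 78.2% higher in place of 50.1%. With only 2 rat lines the number of calls also rests on each of them: 159 genes were called without DA25 (108 higher, 51 lower) and 132 without DA53 (93 higher, 39 lower), of which 154 and 129 were among the 690. None of the 690 changed its sign in any of the 15 alternatives that tested it. Of the 87 called genes named here, 23 kept their call in every alternative that counted them. The others lost it without DA25 or without DA53, fits that leave 1 rat line. Below, a call kept throughout or in all alternatives means every alternative that counted the gene. Bst2, AU018091, Hspb1, Myl6, Dmc1, Vim and Nes are among the 23, but the rat minimum of 1 FPKM removed them, so that alternative did not test them.

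**Figure D1:**
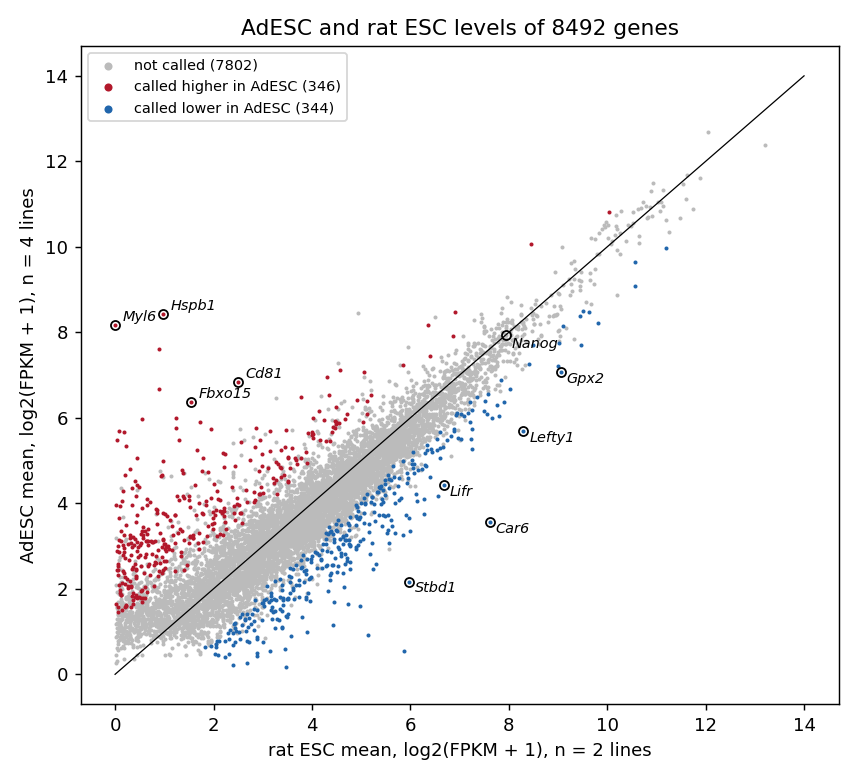
Mean level of 8492 genes in AdESCs (vertical axis, n = 4 lines) and rat ESCs (horizontal axis, n = 2 lines), both as log2(FPKM + 1) of the group mean, with 346 genes called higher in AdESCs in red, 344 called lower in blue, 7802 not called in grey and the diagonal at equal levels. Red genes reach down to a rat level near 0, where Myl6 stands at an AdESC mean of 288 FPKM, and blue genes such as Car6 (10.8 FPKM in AdESCs and 195 FPKM in rat) lie far below the diagonal.

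Falls were mostly partial. In the 344 genes that fell, AdESCs held a median of 30.1% of the rat mean (quartiles 21.2% and 40.5%). The AdESC mean was under 50% of the rat mean in 323 of them, under 25% in 116 and under 10% in 18. In 289 of the 344 the AdESC mean lay between the rat mean and the mouse mean, and in 55 it lay below both. Of the 346 rises, 160 had a rat mean under 1 FPKM, and over the other 186 the AdESC mean was 3.77 times the rat mean in the median (quartiles 2.79 and 6.28). In 245 of the 346 the AdESC mean lay between the rat and mouse means, and in 101 above both. Among the 7802 genes not called, 4817 lay between the means, 1244 above both and 1741 below both. These shares cannot be compared, because a call fixes the side of the rat mean: 0 rises lay below both means and 0 falls above both. The way in which a gene's mouse-derived and rat-derived reads became 1 AdESC value is not given in the sources used here, and summing them or averaging them would place these means differently.

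Car6 gave the clearest fall among the genes with high rat levels. The AdESC lines MR1-1, MR2-1, RM1-1 and RM2-1 held 10.0, 8.76, 8.77 and 15.7 FPKM, against 192 and 199 FPKM in DA25 and DA53, and at 0.937 and 0.428 FPKM in the mouse lines F145 and F146. Every AdESC line was far below every rat line and above every mouse line. The AdESC mean was 10.8 ± 3.29 FPKM (SD, n = 4) and the rat mean 195 ± 4.97 FPKM (SD, n = 2), or 18.0 times higher in rat, with a log2 difference of -4.09 ± 0.30 (SE; limma, adjusted p = 2.05e-05). The call held in all 15 alternatives. Single AdESC cells held it too, at line means from 16.9 to 26.01 FPKM. Of 4 carbonic anhydrase genes followed, Car6 was the only one called, and the membrane-anchored Car4 (log2 difference -0.14 ± 0.88), cytosolic Car7 (-0.29 ± 0.49) and cytosolic Car13 (-0.55 ± 0.42) did not pass the test.

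Lefty1, an inhibitor of Nodal, was lower in each AdESC line but at very different levels. It stood at 140 FPKM in MR1-1, 25.6 in MR2-1, 29.4 in RM1-1 and 5.94 in RM2-1, against 291 and 335 FPKM in DA25 and DA53, and at 2.39 and 2.45 FPKM in the mouse lines. The groups did not overlap, yet the highest AdESC line held 23.6 times the lowest. The log2 difference was -3.39 ± 0.87 (adjusted p = 0.0367). That call was lost without DA25 (-3.49, adjusted p = 0.180), DA53 (-3.29, 0.243), RM1-1 (-3.40, 0.0639), MR2-1 (-3.34, 0.0763), F145 (-3.39, 0.0519) or F146 (-3.39, 0.0524), with upper-quartile scaling (-3.06, 0.0524), with no filter on low values (-3.39, 0.0981) and with only AdESC and rat libraries in the fit (-3.39, 0.0517), so it held in 6 of 15 alternatives. In single AdESC cells the line means were 72.1, 67.2, 182 and 128 FPKM for MR1-1, MR2-1, RM1-1 and RM2-1, so the order of the lines was not that of the bulk libraries, where MR1-1 stood highest.

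Most genes of the Nodal pathway did not pass the test, with 1 of 18 higher and 1 lower (11.1% called, against 8.13% over all genes). The median log2 difference was -0.22 (0.11 with upper-quartile scaling) beside -0.13 over all genes. Among ligands and the proteases that process them, Nodal stood at 36.4, 16.3, 33.7 and 6.85 FPKM in the AdESC lines against 45.4 and 45.6 FPKM in rat (log2 difference -1.18 ± 0.54, adjusted p = 0.199). The ligand Gdf3 averaged 48.8 ± 22.99 FPKM in AdESCs and 104 ± 1.17 in rat (adjusted p = 0.128), and the protease Furin 16.3 ± 7.47 and 41.0 ± 10.0 (adjusted p = 0.0993). In these 3 genes all AdESC lines were below both rat lines, but none passed the test. Groups were also apart, without a call, in Smad2 (lower) and Smad3 (higher), and in 39.9% of all genes followed. Lefty2, the neighbour and close relative of Lefty1, was 35.0, 2.09, 14.0 and 0.539 FPKM in AdESCs and 2.75 and 4.89 FPKM in rat, and its groups overlapped (0.60 ± 1.02, adjusted p = 0.748). Reads shared between Lefty1 and Lefty2 could be split by the authors' counting, so their separate levels are uncertain.

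The activin antagonist Fst was the member of the Nodal list that rose. It stood at 8.75, 6.26, 5.75 and 3.23 FPKM in AdESCs against 0.797 and 0.2997 FPKM in rat (2.13 ± 0.53, adjusted p = 0.0320), and the groups did not overlap. Its call was lost without DA25 (adjusted p = 0.137), DA53 (0.272), MR1-1, MR2-1 or RM1-1. Among receptors, Acvr1b averaged 14.5 ± 8.96 FPKM in AdESCs and 14.6 ± 2.74 in rat, and Acvr2b 5.58 ± 1.30 and 4.00 ± 0.178. Of the signal carriers, Smad2 averaged 10.9 ± 2.25 FPKM in AdESCs and 15.4 ± 0.215 in rat, and Smad3 1.71 ± 1.06 and 0.334 ± 0.083 (adjusted p = 0.301 and 0.154). Smad7, which inhibits the receptors, averaged 13.7 ± 6.59 FPKM in AdESCs and 19.7 ± 0.800 in rat and was raised above the other AdESC lines in MR1-1, at 23.6 FPKM.

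Lifr was lower in AdESCs, while its partner and most of the genes downstream did not pass the test. Lifr levels in MR1-1, MR2-1, RM1-1 and RM2-1 were 25.7, 17.2, 32.1 and 7.23 FPKM, against 91.5 and 112 FPKM in DA25 and DA53, and at 8.29 and 10.3 FPKM in the mouse lines. All 4 AdESC lines lay below both rat lines, and RM2-1 lay below both mouse lines as well. The AdESC mean was 20.6 ± 10.8 FPKM, 20.2% of the rat mean of 102 ± 14.3, with a log2 difference of -2.42 ± 0.48 (adjusted p = 0.0111). The call was lost without DA25 (-2.56, adjusted p = 0.0791) or DA53 (-2.28, adjusted p = 0.128) and held in the other 13 alternatives. Single-cell line means were 9.05, 10.8, 12.6 and 1.44 FPKM, with RM2-1 lowest again.

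Of 22 LIF-pathway genes 3 fell and 0 rose (13.6% called, against 8.13% over all genes), with a median of -0.23 (0.06 with upper-quartile scaling). Beside Lifr these were the kinase Jak2, at 4.54, 2.64, 4.90 and 2.26 FPKM in AdESCs against 7.71 and 17.1 FPKM in rat (-1.50 ± 0.40, adjusted p = 0.0409), and the small GTPase Mras, at 1.56, 1.87, 1.77 and 2.29 FPKM against 12.6 and 5.92 FPKM (-1.76 ± 0.33, adjusted p = 0.00874). No AdESC line reached a rat line in either gene, but the rat lines stood apart, with DA53 the higher for Jak2 and DA25 the higher for Mras. Jak2 lost its call without either rat line, without MR2-1, RM1-1 or RM2-1 and with upper-quartile scaling (-1.20, adjusted p = 0.0807), and Mras lost it without DA25 (-1.27, adjusted p = 0.159).

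The co-receptor Il6st stood at 24.4, 15.3, 22.5 and 8.20 FPKM in AdESCs against 39.6 and 39.0 FPKM in rat (-1.22 ± 0.40, adjusted p = 0.0871). The transcription factor Gbx2, a Stat3 target, averaged 7.93 ± 6.38 FPKM in AdESCs and 26.1 ± 6.46 in rat (-1.83 ± 0.53, adjusted p = 0.0579). Groups did not overlap in either gene, and both missed the threshold. They were also apart in Klf5 (-1.04 ± 0.49), lower in AdESCs, and in Jak1 (0.58 ± 0.30), Pim3 (1.17 ± 0.45) and Socs1 (0.99 ± 0.45), higher. None of these passed the test, and groups were apart in 39.9% of all genes followed. Stat3 itself (30.0 ± 13.9 FPKM in AdESCs and 43.5 ± 0.452 in rat), the feedback inhibitor Socs3 (43.2 ± 32.9 and 78.1 ± 0.130) and the targets Klf4 (51.7 ± 17.1 and 65.3 ± 19.8) and Tfcp2l1 (112 ± 65.2 and 68.3 ± 2.14) overlapped between the groups. The AdESC lines varied widely among themselves in Socs3, with 22.02 FPKM in MR1-1, 82.0 in MR2-1, 10.5 in RM1-1 and 58.3 in RM2-1, and in the stress gene Gadd45g, at 2.62, 29.0, 2.53 and 52.9 FPKM.

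**Figure D2:**
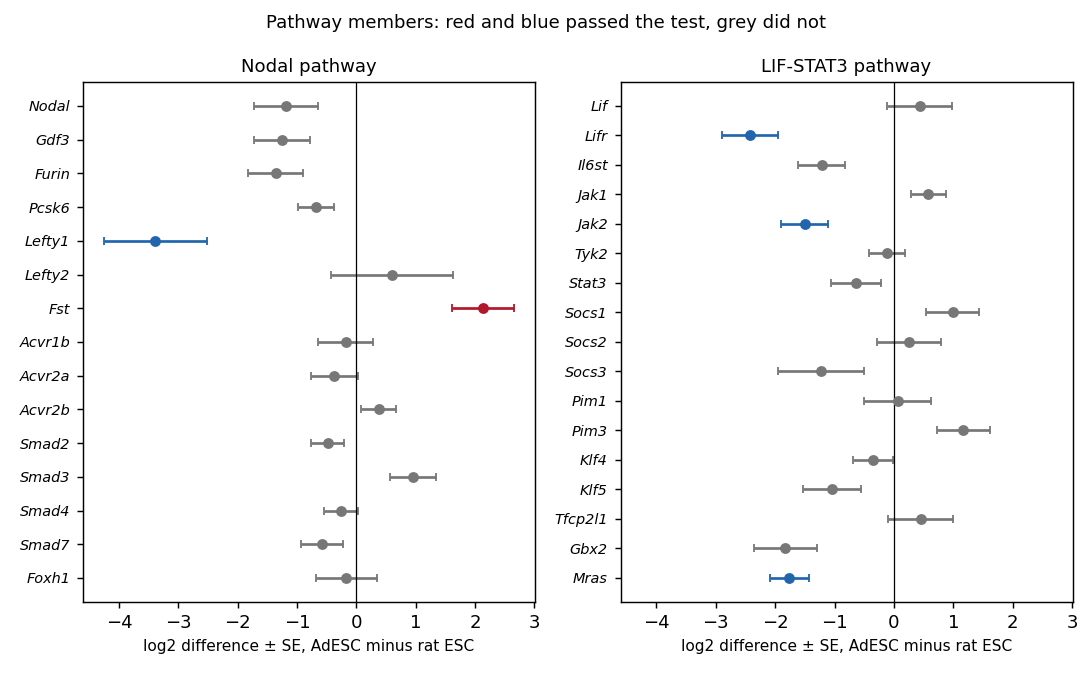
Log2 difference, AdESC minus rat ESC, of log2(FPKM + 1) with its standard error for genes of the Nodal pathway (left panel) and the LIF-STAT3 pathway (right panel), ordered by role from ligands to targets. Lefty1 (-3.39), Lifr (-2.42), Jak2 (-1.50) and Mras (-1.76) passed the test below 0 and Fst (2.13) above it; the grey genes did not pass, and most of their bars lie within 2 units of 0.

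The core pluripotency factors did not differ detectably. Pou5f1 stood at 660, 807, 675 and 696 FPKM in AdESCs against 802 and 924 FPKM in rat (-0.28 ± 0.23, adjusted p = 0.480). Nanog averaged 244 ± 50.8 and 244 ± 38.2 FPKM (adjusted p = 0.979), and Sox2 46.0 ± 30.1 and 56.6 ± 14.2 FPKM (adjusted p = 0.577), with the lowest Sox2 level in RM2-1 at 15.0 FPKM. The groups overlapped in all 3. The nuclear receptor Esrrb averaged 102 ± 21.2 FPKM in AdESCs and 104 ± 6.04 in rat. The defining factors of ESCs were thus at high levels in both groups.

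Of 24 genes of the naive pluripotency network 2 rose and 0 fell, with a median of -0.33 (0.01 with upper-quartile scaling). The share called, 8.33%, was close to the 8.13% over all genes. Fbxo15 (chromosome 18), an F-box gene switched on by Pou5f1 and Sox2, stood at 68.7, 120, 80.4 and 56.1 FPKM in AdESCs against 2.18 and 1.65 FPKM in rat (4.77 ± 0.42, adjusted p = 6.65e-05). The nuclear receptor Nr5a2 stood at 21.03, 9.13, 14.9 and 2.87 FPKM against 0.600 and 1.55 FPKM (2.42 ± 0.59, adjusted p = 0.0296). Neither gene's groups overlapped, and for Nr5a2 the lowest AdESC line, RM2-1, stood next to DA53. Fbxo15 held its call in all alternatives, and Nr5a2 lost it without DA25 (adjusted p = 0.231), DA53 (0.123), MR2-1 or RM1-1.

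Of 14 primed epiblast genes 1 rose, Fst, and 1 fell, Lef1, and none of the 27 FGF-ERK or 13 DNA methylation genes was called at this setting. In the FGF-ERK list the ligand Fgf4 averaged 30.8 ± 14.0 FPKM in AdESCs and 19.4 ± 8.94 in rat. In the DNA methylation list the maintenance enzyme Dnmt1 averaged 72.7 ± 9.47 and 78.5 ± 17.7 FPKM and the de novo enzyme Dnmt3b 42.6 ± 22.4 and 45.0 ± 5.52 FPKM. With upper-quartile scaling 1 DNA methylation gene was called higher and 0 FGF-ERK genes were. The medians were -0.08 for the FGF-ERK list and -0.46 for the DNA methylation list, and 0.26 and -0.15 with that scaling.

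Wnt signalling, which steadies beta-catenin and relieves Tcf7l1 repression in naive cells, had 3 of 26 genes lower and 1 higher (median -0.15, or 0.17 with upper-quartile scaling). The share called was 15.4%, against 8.13% over all genes. The ligand Wnt3a stood at 2.53, 1.51, 2.13 and 0.432 FPKM in AdESCs against 12.1 and 8.64 FPKM in rat (-2.16 ± 0.40, adjusted p = 0.00874). The nuclear effector Lef1 stood at 14.1, 11.2, 16.2 and 4.67 FPKM against 46.2 and 77.6 FPKM (-2.39 ± 0.51, adjusted p = 0.0170), and the feedback target Axin2 at 4.51, 10.9, 7.61 and 4.68 FPKM against 16.1 and 41.7 FPKM (-1.85 ± 0.44, adjusted p = 0.0275). In all 3 the AdESC lines lay below both rat lines. Porcn, the acyltransferase that lipidates Wnt ligands, went the other way, at 3.83, 3.89, 16.9 and 3.02 FPKM against 0.145 and 0.384 FPKM (2.35 ± 0.55, adjusted p = 0.0259), with RM1-1 far above the other AdESC lines. Wnt3a, Lef1 and Porcn lost their calls without DA25 (adjusted p from 0.0712 to 0.187) or DA53 (0.0649 to 0.2104). Axin2 lost it without DA53 (0.359) or RM2-1 and with upper-quartile scaling (0.0530).

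Among genes with an AdESC mean of at least 1 FPKM, Car6 had the largest fall, and other large falls follow. Stbd1 (chromosome 5), which tethers glycogen to membranes, stood at 3.66, 3.54, 5.14 and 1.66 FPKM in AdESCs against 78.1 and 45.2 FPKM in rat, 17.6 times higher in rat (-3.81 ± 0.39, adjusted p = 0.000195). Hey2 (chromosome 10), a repressor induced by Notch, stood at 2.04, 2.40, 2.64 and 0.986 FPKM against 21.8 and 38.9 FPKM (-3.36 ± 0.36, adjusted p = 0.000292). Camk4 (chromosome 18), a calcium-calmodulin kinase, stood at 0.621, 1.41, 0.974 and 1.95 FPKM against 19.6 and 21.5 FPKM (-3.30 ± 0.32, adjusted p = 0.000146). In each gene the gap between the groups was wider than the spread within either, and each held its call in all alternatives. Hey2 was the 1 of 23 Notch genes called, and single AdESC cells held it at line means from 0.926 to 7.60 FPKM.

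Ppp1r14c (chromosome 10), an inhibitor of protein phosphatase 1, stood at 1.24, 4.04, 1.95 and 1.25 FPKM in AdESCs against 34.9 and 16.0 FPKM in rat (-3.07 ± 0.43, adjusted p = 0.00158). Bok (chromosome 1), a cell-death gene of the Bcl2 family, stood at 9.74, 10.9, 9.92 and 6.14 FPKM against 51.0 and 73.6 FPKM (-2.64 ± 0.30, adjusted p = 0.000405). Both kept their calls throughout. Pnma2 (-2.90 ± 0.45), Aig1, a hydrolase of fatty acid esters (-2.70 ± 0.42), and the peptide transporter Slc15a1 (-2.63 ± 0.44) also fell, and lost their calls without DA53 (Pnma2 and Aig1, adjusted p = 0.0528 and 0.0649) or DA25 (Slc15a1, 0.0791). The small G protein Rasd1 fell and varied among the AdESC lines, at 1.24, 10.2, 1.26 and 7.32 FPKM against 43.9 and 33.3 FPKM in rat (-3.08 ± 0.64, adjusted p = 0.0150, lost without DA25 at 0.137 or DA53 at 0.102). The phosphatase Dusp26 fell with MR1-1 apart, at 14.6 FPKM beside 0.637 to 2.105 FPKM in the other AdESC lines and 30.7 and 42.8 FPKM in rat (-3.46 ± 0.78, adjusted p = 0.0224, lost without DA25 at 0.118, DA53 at 0.197 or MR2-1).

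**Figure D3:**
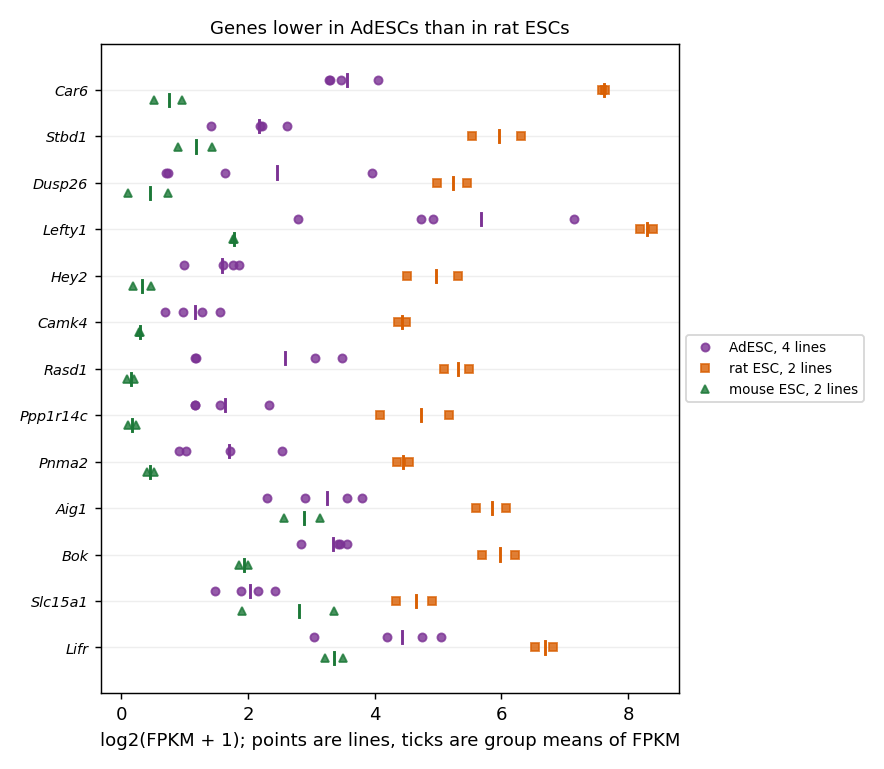
Levels of 13 genes lower in AdESCs as log2(FPKM + 1), with AdESC lines in purple, rat ESC lines in orange and mouse ESC lines in green, each point a line and each tick a group mean of FPKM. AdESC points lie left of both rat points in every row; they are tight for Car6 (8.76 to 15.7 FPKM) and spread for Lefty1 (5.94 to 140 FPKM) and Dusp26 (0.637 to 14.6 FPKM).

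Carbohydrate metabolism held falls and no rises in AdESCs. Of 16 glycolysis genes 3 fell and 0 rose (median -0.50), and of 17 glycogen genes 2 fell and 0 rose (median -0.56). The shares called were 18.8% and 11.8%, against 8.13% over all genes. Pgk1 (X chromosome), the phosphoglycerate kinase, stood at 1219, 993, 693 and 1116 FPKM in AdESCs against 2645 and 2045 FPKM in rat (-1.24 ± 0.27, adjusted p = 0.0196). Ldha, which makes lactate, stood at 1084, 765, 709 and 623 FPKM against 1423 and 1620 FPKM (-0.96 ± 0.26, adjusted p = 0.0414), and Pfkl, the liver-type phosphofructokinase, at 82.8, 75.8, 50.2 and 63.1 FPKM against 130 and 157 FPKM (-1.09 ± 0.29, adjusted p = 0.0403). The AdESC and rat ranges were apart in all 3. All 3 calls were lost without either rat line and with upper-quartile scaling, and those of Ldha and Pfkl also without MR2-1, RM1-1 or RM2-1. With that scaling the glycolysis list had 0 lower and 1 higher and a median of -0.15. The pyruvate kinase gene Pkm (1639 ± 501 FPKM in AdESCs and 2857 ± 546 in rat) and the aldolase gene Aldoa (1228 ± 280 and 1613 ± 161) did not pass.

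In the glycogen list, Pgm2, a mutase of sugar phosphates, fell beside Stbd1, at 13.4, 12.9, 8.64 and 8.96 FPKM in AdESCs against 39.8 and 35.9 FPKM in rat (-1.72 ± 0.28, adjusted p = 0.00408, lost without DA25 or DA53). Of 20 cholesterol synthesis genes 2 fell and 0 rose, 10% beside 8.13% over all genes (median -0.41, or -0.08 with upper-quartile scaling). These were the lanosterol demethylase Cyp51, at 50.4, 49.0, 44.1 and 66.6 FPKM against 114 and 121 FPKM (-1.16 ± 0.23, adjusted p = 0.0127), and the sterol dehydrogenase Nsdhl, at 12.1, 26.2, 17.2 and 14.2 FPKM against 44.8 and 42.7 FPKM (-1.34 ± 0.31, adjusted p = 0.0235). Each rat level exceeded every AdESC level. Both calls were lost without DA25, without DA53 and with upper-quartile scaling (adjusted p = 0.0687 for Cyp51 and 0.0546 for Nsdhl). No gene of the 43 of the nuclear-encoded respiratory chain was called (median -0.003; 2 were called higher with upper-quartile scaling).

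Glutathione and aldo-keto enzymes moved in both directions, with 5 of 27 higher and 3 lower against a background of 8.13%. Gpx2, a glutathione peroxidase, was the most abundant of those that fell, at 126, 175, 109 and 126 FPKM in AdESCs against 436 and 625 FPKM in rat (-1.98 ± 0.31, adjusted p = 0.00349, lost without DA53 at 0.0720). Akr1c14, a hydroxysteroid dehydrogenase, stood at 0.168 to 0.950 FPKM in AdESCs against 105 and 9.94 FPKM in rat (-4.56 ± 0.71, adjusted p = 0.00312), so its size hangs on which rat line is used (-2.92 without DA25 and -6.20 without DA53), and it kept its call throughout. Gstm1, a glutathione transferase, was the largest rise of the list, at 58.4, 76.7, 53.5 and 45.9 FPKM in AdESCs against 3.54 and 1.03 FPKM in rat (4.27 ± 0.41, adjusted p = 0.000119, kept throughout). Gsto1 (1.90 ± 0.36), Gstm6 (1.87 ± 0.43), Akr1b8 (1.71 ± 0.43) and Akr1b10 also rose and Gpx8 fell (-1.79 ± 0.47), and the calls of Gsto1, Gstm6, Akr1b8 and Gpx8 were lost without DA25 or DA53. The Gstm, Akr1b and Akr1c genes are families of close copies, so reads could be split among them and the level of each is uncertain.

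Immune genes also moved in both directions. Gbp2 (chromosome 3), an interferon-induced GTPase, stood at 1.25, 0.671, 1.00 and 0.589 FPKM in AdESCs against 42.2 and 25.8 FPKM in rat, 38.8 times higher in rat (-4.19 ± 0.46, adjusted p = 0.000322). Bst2 (chromosome 8), which tethers budding virus particles, stood at 37.7, 70.6, 53.5 and 89.4 FPKM against 2.11 and 0.622 FPKM, 46.0 times higher in AdESCs (4.76 ± 0.38, adjusted p = 3.25e-05). The groups were widely apart in both genes, which kept their calls in all alternatives that counted them. The GTPase Igtp (-2.26 ± 0.42) and the membrane protein Ifitm1 (-1.79 ± 0.37) fell, so the interferon list had 3 of 22 lower and 1 higher (18.2% called, against 8.13% over all genes). In the antigen presentation list 2 of 10 fell, the peptide-trimming protease Erap1 (-1.58 ± 0.32) and the proteasome activator Psme1 (-1.18 ± 0.27). Igtp, Erap1 and Psme1 lost their calls without DA25 or DA53 (adjusted p from 0.0626 to 0.185), Ifitm1 without DA53 (0.201) and Psme1 with upper-quartile scaling too. Single AdESC cells held Bst2 at line means from 4.72 to 17.1 FPKM, below every bulk AdESC value.

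The most abundant genes that fell, beside Pgk1 and Ldha, were Cstb, Tuba1c and Arf1. Cstb, an inhibitor of lysosomal proteases, averaged 543 ± 158 FPKM in AdESCs and 1510 ± 692 in rat (-1.44 ± 0.36, adjusted p = 0.0327). Tuba1c, an alpha-tubulin with close copies, averaged 296 ± 124 and 897 ± 325 FPKM (-1.67 ± 0.42, adjusted p = 0.0352), and Arf1, a GTPase of vesicle coats, 357 ± 27.2 and 795 ± 194 FPKM (-1.14 ± 0.22, adjusted p = 0.0104). DA53 was above DA25 in all 3 genes, and without DA53 none was called (adjusted p = 0.359, 0.336 and 0.181). Cstb and Tuba1c also lost their calls with upper-quartile scaling (0.102 and 0.0634) and without MR2-1, Cstb without RM1-1 and Tuba1c without DA25.

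Fbxo15 and Bst2 had the largest rises among genes with a rat mean of at least 1 FPKM, followed by Dusp1 and Cd81. Dusp1 (chromosome 17), a phosphatase of MAP kinases, stood at 37.5, 40.6, 64.1 and 71.7 FPKM in AdESCs against 1.58 and 1.17 FPKM in rat (4.47 ± 0.68, adjusted p = 0.00274). Cd81 (chromosome 7), a tetraspanin, stood at 73.4, 143, 112 and 124 FPKM against 3.51 and 5.82 FPKM (4.32 ± 0.36, adjusted p = 4.54e-05). Ak4 (chromosome 4), a mitochondrial adenylate kinase, stood at 70.2, 38.6, 41.2 and 59.1 FPKM against 2.101 and 3.58 FPKM (3.78 ± 0.45, adjusted p = 0.000569). Each AdESC line held more than 10 times the higher rat line in these genes. Hspb8, a small heat shock protein (3.57 ± 0.37), the uncharacterised AU018091 (3.34 ± 0.52), the secreted chaperone Clu (3.22 ± 0.45) and the nucleoside transporter Slc29a1 (3.16 ± 0.45) rose by lesser amounts. All 7 genes kept their calls throughout, though AU018091 had 2.28 without DA53 and 4.41 without DA25, since DA25 held 6.40 FPKM and DA53 0.692.

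Nppb (chromosome 4), the precursor of a natriuretic peptide, stood at 73.7, 32.5, 28.0 and 39.4 FPKM in AdESCs against 1.91 and 0.994 FPKM in rat (4.10 ± 0.93, adjusted p = 0.0228). The mouse lines stood at 73.6 and 2.47 FPKM, wide apart, and the call was lost without DA25 (adjusted p = 0.114) or DA53 (0.194). The most abundant rises were Rps14 (1805 ± 161 FPKM in AdESCs and 1048 ± 126 in rat, 0.78 ± 0.21, adjusted p = 0.0470) and Rpl28 (1069 ± 263 and 351 ± 2.09, 1.57 ± 0.37, adjusted p = 0.0248), both ribosomal protein genes with many processed copies in rodent genomes. Next came Bex1 on the X chromosome (355 ± 35.2 and 119 ± 0.0303, 1.57 ± 0.25, adjusted p = 0.00368), then Hspb1 (344 ± 84.5 and 0.962 ± 0.328) and Myl6. Both Hspb1 and Myl6 kept their calls throughout. Myl6 was listed at 9e-06 and 4e-06 FPKM in DA25 and DA53, which cannot be taken as measured levels. Leaving out 1 rat line kept the other near 0, so the alternatives could not test these values. Rps14 lost its call without any 1 of the 6 AdESC and rat libraries, Rpl28 without DA25, DA53, MR2-1 or RM2-1, and Bex1 without DA53 (0.0525).

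**Figure D4:**
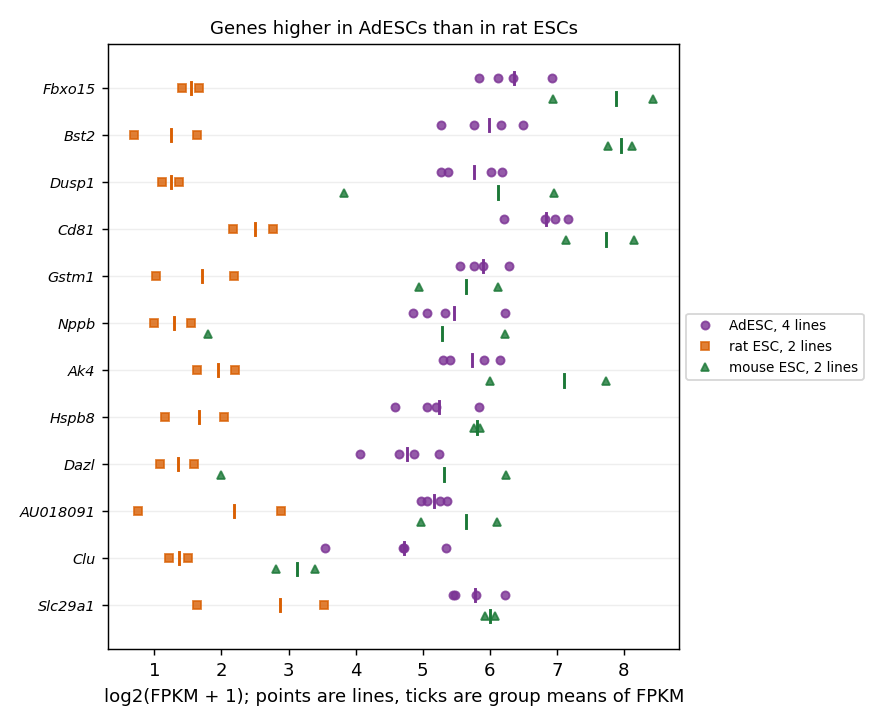
Levels of the 12 largest rises with a rat mean of at least 1 FPKM as log2(FPKM + 1), with AdESC lines in purple, rat ESC lines in orange and mouse ESC lines in green, each point a line and each tick a group mean of FPKM. AdESC points lie right of both rat points in every row and mostly near the mouse points, which are wide apart for Nppb (73.6 and 2.47 FPKM) and Dazl (2.97 and 74.9 FPKM).

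Germline genes, which ESCs transcribe in part without being germ cells, had 4 of 21 higher and 0 lower, with a median of 0.65 (0.99 with upper-quartile scaling). The share called was 19.0%, against 8.13% over all genes. Dmc1 and Sycp1 were under 1 FPKM in both rat lines and reached the mean only through AdESC or mouse levels. They could be called higher and not lower, so the split between rises and falls was in part fixed by the choice of genes. A minimum of 1 FPKM in both rat lines removed Dmc1, Sycp1 and Hormad1. Dmc1, the meiotic recombinase, stood at 5.65, 3.47, 5.88 and 4.03 FPKM in AdESCs against 0.0419 and 0.0384 FPKM in rat (2.45 ± 0.31, adjusted p = 0.000844, kept throughout). Sycp1, of the synaptonemal complex, stood at 6.61, 6.20, 9.07 and 9.90 FPKM against 0.346 and 0.289 FPKM (2.74 ± 0.49, adjusted p = 0.00668), and Hormad1, of the meiotic chromosome axis, averaged 7.31 ± 2.65 and 1.00 ± 0.421 FPKM (2.02 ± 0.40, adjusted p = 0.0115). The RNA-binding Dazl stood at 28.1, 15.7, 37.0 and 24.2 FPKM against 2.00 and 1.12 FPKM (3.37 ± 0.89, adjusted p = 0.0407). Groups did not overlap in the 4 genes, and AdESC means of Sycp1 and Dmc1 lay above the mouse means as well. Sycp1 and Hormad1 lost their calls without DA25 (adjusted p = 0.0651 and 0.0694) or DA53 (0.0785 and 0.156), and Dazl without DA25 (0.170), DA53 (0.277) or any AdESC line. Single AdESC cells held Dazl at line means of 217, 100, 25.03 and 48.8 FPKM and Sycp1 at 10.0 to 18.6 FPKM.

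Imprinted genes can be read from the maternal or the paternal copy alone, some of them only in certain tissues. Which copy was read in these ESCs was not measured. Of genes listed as maternally expressed in the mouse 3 of 13 were higher and 0 lower, and of those listed as paternally expressed 1 of 9 was higher and 2 lower. The shares called were 23.1% and 33.3%, against 8.13% over all genes. Among the maternally expressed ones Tssc4, next to Cd81 on chromosome 7, stood at 9.40, 14.7, 14.9 and 13.5 FPKM in AdESCs against 2.91 and 4.30 FPKM in rat (1.61 ± 0.30, adjusted p = 0.00882). The adaptor Grb10 stood at 3.96, 2.61, 5.96 and 2.45 FPKM against 0.231 and 0.461 FPKM (1.76 ± 0.44, adjusted p = 0.0331). Snrpn and Snurf, which lie on 1 shared transcript, had opposite calls: Snrpn averaged 32.3 ± 19.24 FPKM in AdESCs and 2.46 ± 0.330 in rat (3.05 ± 0.50), and Snurf 31.4 ± 6.03 and 64.5 ± 7.67 (-1.03 ± 0.27, adjusted p = 0.0417). The counting could assign the shared reads to either name, so neither direction is settled. Nnat, a small membrane protein, averaged 17.6 ± 6.37 and 68.3 ± 23.8 FPKM (-1.91 ± 0.37, adjusted p = 0.0104). Tssc4 and Grb10 lost their calls without DA25 or DA53, Snrpn without DA25 (adjusted p = 0.0559) and Nnat without DA53 (0.178), while Snurf lost it without any AdESC or rat line.

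Cell-contact and calcium-calmodulin genes moved in both directions, and the cycle genes called rose. In the list of ephrins, semaphorins and cadherins 3 of 24 rose and 2 fell (20.8% called, against 8.13% over all genes). Those that rose had rat levels under 1 FPKM: the ephrins Efnb2 (4.53 ± 2.12 FPKM in AdESCs and 0.262 ± 0.212 in rat) and Efnb3 (2.51 ± 0.329 and 0.326 ± 0.0616), and the cadherin Cdh3 (4.16 ± 1.24 and 0.132 ± 0.0698). Those that fell were the ephrins Efna1, at 8.43, 24.7, 9.45 and 23.5 FPKM in AdESCs against 49.4 and 60.8 FPKM in rat (-1.82 ± 0.44, adjusted p = 0.0297), and Efna2 (-2.11 ± 0.46, adjusted p = 0.0188). Of the calcium-calmodulin list 2 of 19 rose, the kinases Camk1d and Camk2b. Another 2 fell, Camk4 and Camk1 (4.84 ± 0.894 FPKM in AdESCs and 11.8 ± 0.0188 in rat), so 21.1% of the list was called. Among 24 G1/S genes the kinases Cdk2 (32.5 ± 9.50 and 12.7 ± 2.42 FPKM, 1.26 ± 0.31, adjusted p = 0.0296) and Cdk6 (1.92 ± 0.42, adjusted p = 0.0193) rose, 8.33% beside 8.13% over all genes. None of 21 G2/M genes was called, and 1 of 23 p53 targets rose (4.35%), Gadd45a (1.96 ± 0.47, adjusted p = 0.0269). With upper-quartile scaling 5 p53 targets and 1 G2/M gene were called higher. Each of these calls other than that of Camk4 was lost without DA53, where Gadd45a had 1.06 and Cdk6 1.40.

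The share called was 5.88% in the BMP list and 13.6% in the heat shock list, against 8.13% over all genes. Id4, an inhibitor of basic helix-loop-helix factors, was the 1 of 17 BMP genes to rise, at 5.81, 2.11, 7.95 and 3.67 FPKM in AdESCs against 0.793 and 0.683 FPKM in rat (1.65 ± 0.43, adjusted p = 0.0383). Of 22 heat shock genes Hspb1 and Hspb8 rose and Dnajb1, a co-chaperone of Hsp70, fell (30.6 ± 5.29 FPKM in AdESCs and 56.3 ± 1.76 in rat, -0.87 ± 0.24, adjusted p = 0.0475). Without either rat line neither Id4 (adjusted p = 0.2004 and 0.266) nor Dnajb1 (0.287 and 0.291) was called.

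**Figure D5:**
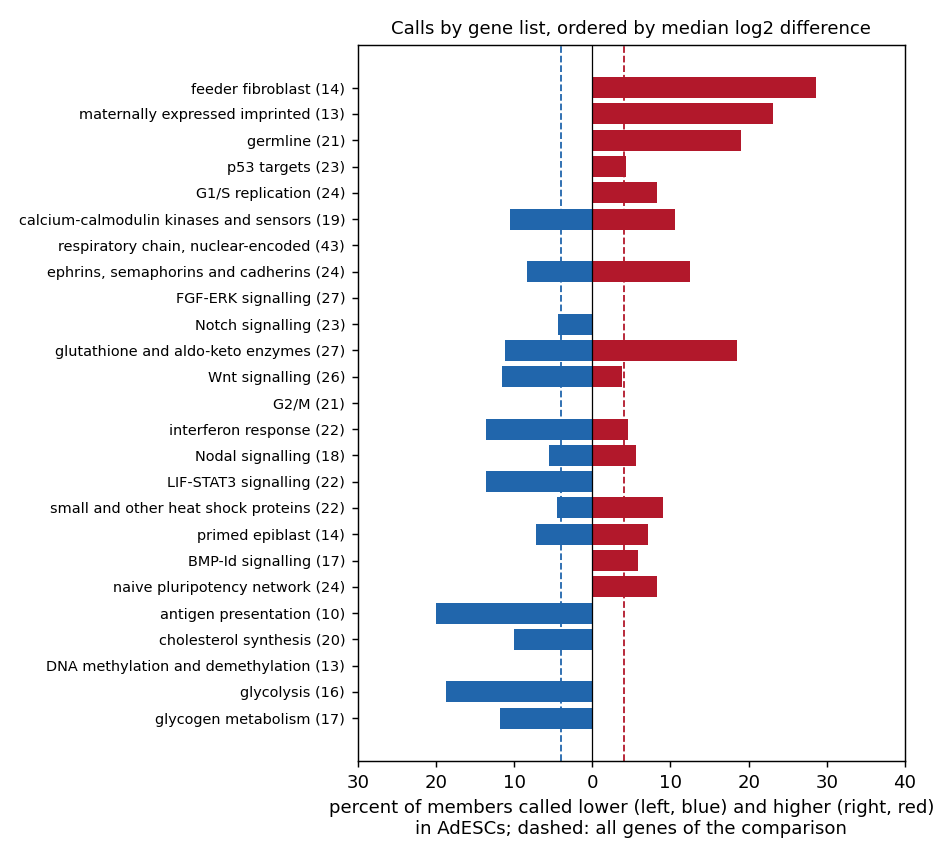
Share of each list's genes called lower (blue, left of 0) and higher (red, right of 0) in AdESCs, in percent, for the lists with at least 10 genes followed (number in brackets), with dashed lines at the shares over all 8492 genes (4.05% lower, 4.07% higher). Lists run from the highest median log2 difference at the top (feeder fibroblast, 1.10) to the lowest at the bottom (glycogen metabolism, -0.56), and 4 lists have no bar.

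Some markers of other cells were called, mainly in the feeder fibroblast and leukocyte lists. In bulk samples, fewer cells of a type and less RNA per cell cannot be told apart. Of 14 feeder fibroblast markers followed, 4 rose and 0 fell (28.6% called, against 8.13% over all genes). The intermediate filament Vim stood at 85.7, 31.4, 92.2 and 36.6 FPKM in AdESCs against 0.471 and 0.441 FPKM in rat (5.27 ± 0.69, limma, adjusted p = 0.00110, kept throughout). The matrix genes Col1a1, Postn and Sparc rose too. Vim, Col1a1 and Postn were under 1 FPKM in both rat lines. They reached the mean only through AdESC or mouse levels, so they could be called higher and not lower. Leaving out 1 rat line kept the other near 0, so the alternatives could not test the rat level of Vim. The 3 matrix genes lost their calls without DA53 (adjusted p from 0.0562 to 0.182), and Col1a1 and Postn without DA25 as well. Of the 24 such markers measured, 15 were at 1 FPKM or more in all 4 AdESC lines and 5 in both rat lines, and 8, among them Col1a2, Col3a1, Thy1, Lum and Dcn, were listed at 0 in both rat lines. Markers tested summed to 584 to 831 FPKM in AdESCs, 401 and 719 FPKM in rat, 756 and 4287 FPKM in mouse, and 115 to 149 FPKM in single AdESC cells, where Postn was 0 in 3 of 4 lines and Vim ran from 0.563 to 17.3 FPKM. The matrix gene Fn1 made up most of the rat sums, at 324 and 674 FPKM in DA25 and DA53, and without it the markers summed to 255 to 469 FPKM in AdESCs and 77.6 and 44.6 FPKM in rat. Their part in the other results was not tested.

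Further small lists held calls. Of 3 leukocyte markers followed 2 rose, the lysosomal Cd68 (5.49, 26.9, 11.9 and 23.5 FPKM in AdESCs against 1.51 and 1.29 FPKM in rat) and Laptm5 (21.5, 63.3, 53.5 and 37.6 FPKM against 5.75 and 7.75 FPKM), and both calls were lost without DA25 or DA53. The pan-leukocyte marker Ptprc stood at 0.0351 FPKM or less in all 6 libraries, and single AdESC cells held Laptm5 at 12.2 to 45.8 FPKM. Of 3 neuroectoderm markers Nes rose (12.7 ± 5.75 FPKM in AdESCs and 0.975 ± 0.309 in rat, 2.73 ± 0.36, kept throughout). Tubb3 went the other way without a call, at 13.8, 21.9, 34.6 and 11.2 FPKM in AdESCs against 46.6 and 54.5 FPKM in rat. The neuroectoderm markers tested summed to 22.2 to 47.9 FPKM in AdESCs and 48.0 and 55.5 FPKM in rat. Pax6 and Hes5 were listed at 0 in both rat lines and stood at no more than 0.312 and 0.266 FPKM in AdESCs. In the endoderm list Sparc rose and Lama1 fell (37.0 ± 13.2 and 92.1 ± 15.0 FPKM), and 0 of 3 mesoderm genes were called. Trophoblast markers summed to 17.3 to 73.3 FPKM in AdESCs and 91.3 and 124 FPKM in rat, and none was called: Cdx2 stood at 3.15, 12.2, 8.05 and 3.02 FPKM in AdESCs against 10.7 and 82.1 FPKM in rat (adjusted p = 0.0852), with DA53 far above DA25. Without DA25, 1 trophoblast gene was called lower. The part of these markers in the other results was not tested.

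Single AdESC cells give a reading of the same 4 lines apart from bulk, with 6 cells of MR1-1, 8 of MR2-1, 4 of RM1-1 and 6 of RM2-1 and no single rat ESCs beside them. Among genes that rose with a rat mean of at least 1 FPKM, 141 of 186 (75.8%) averaged 1 FPKM or more among the cells of every line. The share was 195 of 346 (56.4%) over all rises, 178 of 344 (51.7%) over falls and 5025 of 7802 (64.4%) over genes not called. These sets were chosen in part by their bulk AdESC level, so the differences between the shares are no separate support for the calls. Stbd1 and Ppp1r14c, both low in bulk AdESCs, had line means of at most 0.0647 FPKM in the cells, whereas Bok had 10.8 to 32.5 FPKM.

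Correlations of log2(FPKM + 1) across genes, where genes are not independent replicates, ran from 0.949 to 0.982 between AdESC lines, stood at 0.987 between the rat lines, and ran from 0.911 to 0.934 between AdESC and rat lines. No gene was called by limma between the RM and MR lines (2 lines each; 51 genes at an unadjusted p under 0.05, smallest adjusted p 1.00), and none was called with a pseudocount of 0.1 or without any AdESC line, so a difference between them was not detectable with these lines. Among called genes the highest AdESC line held 1.98 times the lowest in the median (quartiles 1.58 and 2.70), against 1.94 times among genes not called (1.52 and 2.80). By that ratio Lefty1, at 23.6, ranked the fifth among the 344 falls.

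Genes with a wide gap between the parent species are described here without a test, since the choice of genes leaves most AdESC values between the parents. In 34 genes the mouse mean was under 1% of a rat mean of at least 10 FPKM, and AdESCs held a median of 25.2% of the rat level (quartiles 13.3% and 46.7%). In 43 genes the rat mean was under 1% of a mouse mean of at least 10 FPKM, and AdESCs held a median of 35.6% of the mouse level (quartiles 22.4% and 51.9%). Calls were spread over the mouse chromosomes at 5.83% to 13.7% of the genes followed on each. The X chromosome had the highest share, 19 rises and 16 falls among 255 genes, and chromosome 15 followed with 12.1% of 354.

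Across the 6 libraries compared, summed FPKM ran from 319603 to 377664 and 7835 to 8770 genes reached 1 FPKM. Read depth is unknown, since the spacing of low values did not give whole reads, so no counting interval is given and the spread between lines is the measure of error. The replicates were separate lines, and nothing in the labels says that they were cultured or sequenced apart, so the p-values cover the variation among these samples alone, which may be technical.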

How the data were processed

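Bulk RNA of 8 ESC lines was extracted with Trizol and made into TruSeq libraries, per the labels' protocols. The deposited values are FPKM per gene, made by the authors; per the submitters' processing notes FastQC 0.10.1, TopHat2 2.0.10, Cufflinks 2.1.1, mm10 and rn5 were used. How mouse and rat reads were joined into the AdESC values is not given in the sources used here. Read depth is unknown, so no counting interval is given. Of the single-cell columns, 24 AdESC cells were used as a description and 63 columns were not used.

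The 8794 genes averaging 1 FPKM or more across the 8 libraries were fitted as log2(FPKM + 1) with limma 3.58.1 in R 4.3.3 (3 groups, empirical Bayes with a trend), with the Benjamini-Hochberg adjustment across all 8794 and a threshold of 0.05. A fold change on this scale understates the change of low genes. Mouse symbols were matched to a gene table (13295 directly, 597 by older symbols, 34 not). The procedure was tested on simulated data.

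The genes named were Lefty1, Lifr and Car6, the 12 largest rises with a rat mean of at least 1 FPKM and the 12 largest falls with an AdESC mean of at least 1 FPKM, the 5 most abundant called genes each way, up to 4 called genes per list and direction, Pou5f1, Nanog and Sox2, and the pathway or family members of the 3 markers. Akr1b10, Pkm, Aldoa, Fgf4, Dnmt1, Dnmt3b, Esrrb, Cdx2, Ptprc, Fn1, Tubb3 and the markers listed at 0 were added after their values were seen. A few list members are not reported by name here. The members and the 32 lists were chosen with earlier results of these data known. Alternatives were another pseudocount, no filter, upper-quartile scaling, other model forms, a rat minimum and leaving out each library.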

Additional observations from a re-analysis of the deposited data

Results flagged for a closer look

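Of 127 named genes, 4 had a single AdESC line whose gap to the nearest other line took up more of the range of the 4 lines than Dixon's 95% critical value allows. Chance flags about 1 in 20 such groups. The phosphatase Dusp26 stood at 14.6 FPKM in MR1-1, against 0.673 in MR2-1, 2.105 in RM1-1 and 0.637 in RM2-1. The Wnt acyltransferase Porcn stood at 16.9 FPKM in RM1-1 and at 3.83, 3.89 and 3.02 FPKM in MR1-1, MR2-1 and RM2-1. The intermediate filament gene Nes stood at 21.3 FPKM in MR1-1 and at 9.68, 10.3 and 9.54 FPKM in the other lines. The receptor inhibitor Smad7 stood at 23.6 FPKM in MR1-1 and at 11.5, 10.0 and 9.83 FPKM in the other lines. MR1-1 was the line apart in 3 of these genes and RM1-1 in 1.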

How the results depend on the processing

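The 690 calls rested most on the rat lines. Leaving out 1 library at a time gave between 132 (without DA53) and 875 called members, 93 to 433 higher and 39 to 442 lower, and between 223 and 1063 called genes over all 8794, 184 to 621 higher and 39 to 442 lower. Without DA25, 159 members (108 higher, 51 lower) and 250 genes (199 higher) were called, and without DA53, 132 members (93 higher, 39 lower) and 223 genes (184 higher). Without RM1-1 217 genes were lower, without RM2-1 225, and without MR2-1 226 members were higher. Upper-quartile scaling gave 588 members higher and 164 lower. RM and MR lines as separate groups gave 452 members, 199 of them lower, no filter on low values gave 228 members higher, and a minimum of 1 FPKM in both rat lines, which leaves fewer genes counted, gave 159 members higher. Other causes were not tested. Leaving out the mouse lines was chosen after seeing the data.

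No called gene reversed. Among genes not called, the log2 difference turned positive with upper-quartile scaling in Pou5f1 (0.063), Nanog (0.33), Acvr1b (0.14), Foxh1 (0.15), Smad4 (0.077), Tgif1 (0.25), Pias3 (0.17), Ptpn11 (0.071), Tyk2 (0.18) and Car4 (0.14). Without single libraries the difference ranged from -0.18 to 0.14 in Nanog, -0.52 to 0.091 in Acvr1b, -0.54 to 0.20 in Foxh1, -0.18 to 1.33 in Lefty2, -0.037 to 0.34 in Nomo1, -0.59 to 0.078 in Smad4, -0.42 to 0.24 in Tgif1, -0.42 to 0.065 in Pias3, -0.24 to 0.41 in Pim1, -0.023 to 0.64 in Socs2, -0.28 to 0.0070 in Tyk2, -1.50 to 1.21 in Car4 and -0.65 to 0.075 in Car7.

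No paired analysis was possible because the replicate numbers were given in accession order and the labels pair no AdESC line with a rat line. Depth is unknown, and with 2 rat lines a gene that differs between DA25 and DA53 has a wide error.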
